A study of Homo sapiens with 414 samples.

Results

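The G2 and mitosis genes described here are 35 genes that dividing cells transcribe mainly in G2 phase and mitosis. They form a named list with no threshold on the measurements, and all 35 are among the 19084 genes of the table and among the 16192 genes tested. The list holds the cyclins and regulators of their kinase (CCNA2, CCNB1, CCNB2, CDK1 and CDC25C), mitotic kinases (AURKA, AURKB, PLK1, BUB1, BUB1B, TTK, MELK and PBK), centromere and kinetochore proteins (CENPA, CENPE, CENPF, NDC80 and NUF2), the passenger complex members BIRC5 and CDCA8, and CDC20 and UBE2C, which work with the anaphase-promoting ubiquitin ligase. It also holds the kinesin motors KIF11, KIF20A, KIF23, KIF2C and KIF4A, the spindle proteins TPX2, NUSAP1, PRC1, ASPM, HMMR and DLGAP5, the DNA topoisomerase TOP2A and the proliferation antigen MKI67.

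The cultures were made from H1-NPC, neural progenitor cells whose name refers to the H1 human embryonic stem cell line, so every library comes from 1 cell line. Cells were expanded with the growth factor FGF2 for 5 days, moved to multiwell plates without it and given a compound from the day of seeding. RNA was measured after 1, 2, 3, 4, 6, 8, 10, 15, 21, 27 and 39 days for 29 compounds labelled toxic and 16 labelled non-toxic. There was at most 1 library per compound and day, and not every compound had every day. Arsenic, cadmium, busulfan, cytosine beta-D-arabinofuranoside, okadaic acid, vincristine and aspirin ended at day 6 and glucosamine at day 10, and Maneb had day 1 only. The non-toxic libraries numbered 16 on day 1, 10 on day 8 and 7 on day 15. The 16 non-toxic compounds (acetaminophen, amoxicillin, aspirin, DMSO, Ficoll 400, fructose, glucosamine, glycerol, glyphosate, ibuprofen, naproxen sodium, PEG 3350, PVP, saccharin, sorbitol and sucrose) were the reference, so the controls also carried a compound. The toxic agents that the results turn on were 5-fluorouracil at 10 µM, cytosine beta-D-arabinofuranoside (AraC) at 5 µM, busulfan at 50 µg/ml, hydroxyurea at 250 µM, vincristine at 1 nM, okadaic acid at 3 nM, arsenic at 5 µM, cadmium at 50 µM, K252a at 30 nM, U0126 at 10 µM, PD166866 at 2.5 µM, Bis-I at 4 µM, (trans) retinoic acid at 1.7 µM, Accutane or isotretinoin at 0.5 µg/ml, dexamethasone at 100 µM, monosodium glutamate at 150 µM and carbamazepine at 10 µg/ml. Amiodarone was given at 1 µg/ml, lead acetate at 30 µM and Maneb at 60 µM. Doses of the 9 others were 0.4 mM 2-imidazolidinethione, 50 µg/ml benzene, 10 nM bioallethrin, 10 µM diazinon and 3 nM dioxin. The rest were 1 mM L-phenylalanine, 2.5 µM permethrin, 25 µg/ml propylthiouracil and 100 ng/ml thalidomide. Levels are in TPM, transcript abundances corrected for length and scaled to the same total in every library, and a difference is on the log2(TPM + 1) scale. The days of a compound served as its replicates, and because most libraries in each comparison were non-toxic, these set most of the spread against which a compound was tested.

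In a dividing cell, cyclin B and CDK1 form the kinase that starts mitosis, the kinases PLK1 and AURKA mature the centrosomes and spindle, and the checkpoint kinases BUB1, BUB1B and TTK hold anaphase back until kinetochores are attached. CDC20 then activates the anaphase-promoting ubiquitin ligase, which destroys cyclin B. Most of these genes are held off in resting cells through a promoter element called the cell cycle homology region, bound by the DREAM complex that the p53 target CDKN1A helps to assemble, and are turned on in G2 by FOXM1 and MYBL2, which is why they serve as markers of proliferating progenitors in neural tissue.

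Promoters of 4 members are shown, the first in the fixed order of the members with a letter match to TTTGAA or TTCGAA close to the start. These letters stand here for that element. RefSeq promoter windows of GRCh38.p14, 250 bases before to 50 bases after the start, were matched for 29 of the 35 members. Capitals mark TTTGAA or TTCGAA (or the reverse complements TTCAAA and TTCGAA) within 60 bases before to 50 after the start, and CCAAT (or its reverse complement ATTGG) anywhere. The windows are MKI67 at chr10:128126374-128126673 on the minus strand, CCNB2 at chr15:59104896-59105195 on the plus strand, CDK1 at chr10:60778228-60778527 on the plus strand and PLK1 at chr16:23678639-23678938 on the plus strand.
MKI67: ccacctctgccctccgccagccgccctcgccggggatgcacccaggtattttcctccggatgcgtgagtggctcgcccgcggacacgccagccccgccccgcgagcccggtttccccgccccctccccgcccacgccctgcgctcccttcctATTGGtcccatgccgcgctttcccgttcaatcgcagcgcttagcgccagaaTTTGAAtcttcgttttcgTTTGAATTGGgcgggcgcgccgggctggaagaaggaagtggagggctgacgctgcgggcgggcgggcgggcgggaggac
CCNB2: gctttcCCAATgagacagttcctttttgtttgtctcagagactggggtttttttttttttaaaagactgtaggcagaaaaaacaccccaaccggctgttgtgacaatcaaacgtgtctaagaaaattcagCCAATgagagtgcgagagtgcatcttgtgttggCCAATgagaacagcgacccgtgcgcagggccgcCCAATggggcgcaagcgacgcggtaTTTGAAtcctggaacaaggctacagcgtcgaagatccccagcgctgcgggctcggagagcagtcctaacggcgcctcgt
CDK1: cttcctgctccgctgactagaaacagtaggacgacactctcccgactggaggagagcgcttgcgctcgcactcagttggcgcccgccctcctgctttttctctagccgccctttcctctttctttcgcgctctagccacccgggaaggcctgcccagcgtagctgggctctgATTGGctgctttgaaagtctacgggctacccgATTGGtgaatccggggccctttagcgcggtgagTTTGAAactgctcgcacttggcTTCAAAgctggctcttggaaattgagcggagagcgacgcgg
PLK1: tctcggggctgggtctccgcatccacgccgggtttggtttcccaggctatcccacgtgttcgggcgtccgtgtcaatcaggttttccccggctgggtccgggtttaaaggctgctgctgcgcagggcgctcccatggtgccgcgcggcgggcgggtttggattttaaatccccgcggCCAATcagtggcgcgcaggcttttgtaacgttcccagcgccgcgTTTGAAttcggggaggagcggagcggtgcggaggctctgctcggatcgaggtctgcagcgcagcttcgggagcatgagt
In MKI67 the second TTTGAA runs into an ATTGG on the other strand, so the capitals there overlap. TTTGAA or TTCGAA lay near the start in 65.5% of the 29 matched members, on either strand, against 6.7% of the 27305 genes with a window. CCAAT was found in 79.3% of matched members against 39.7% of all genes, and both motifs in 55.2% against 2.8%. The windows of CENPE, KIF2C and MELK held neither. These are letter matches and do not show binding.

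A total of 413 libraries was used, 148 non-toxic and 265 toxic. The vincristine library of day 4 was left out because it stands apart, with 17188 genes at 1 TPM or more against 11377 to 14633 in the others, and a median deviation of all genes from the non-toxic mean of -1.05. TPM keeps no record of sequencing depth, so the depth behind each value is unknown. In some libraries the deviation from the non-toxic mean followed transcript length, with long transcripts low. A slope under -0.1 per log2 of length was found in 14 of 19 toxic libraries of day 21, in 8 of 21 of day 15, in 1 to 4 toxic libraries each of days 1, 3, 4, 6, 10 and 39 (arsenic, busulfan, cadmium, okadaic acid and U0126 among them), in the ibuprofen library of day 8 (-0.44) and in the day 1 libraries of monosodium glutamate (-0.51) and Maneb (-0.55). The progenitor markers SOX2 (291 TPM), NES (1642 TPM) and VIM (3320 TPM) were abundant in the non-toxic libraries of day 1, and the daily non-toxic means of the microglial markers AIF1, PTPRC and CX3CR1 were at or below 0.116 TPM.

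All 35 genes were lower on day 4 than on day 1 in the non-toxic cultures, lower again on day 10, mostly higher on day 21 and lowest on day 39. TOP2A, which untangles sister chromatids, had a lowest, median and highest level of 353, 364.5 and 373 TPM over the 16 libraries of day 1, and of 239, 261 and 272.5 TPM on day 4. On day 10 these were 47.7, 58.8 and 70.9 TPM, on day 21 66.5, 86.6 and 111 TPM, and on day 39 17.3, 21.0 and 32.1 TPM. The ranges of days 1, 4 and 10 did not overlap, while the highest TOP2A level of day 10 lay above the lowest of day 21. MKI67, a marker of cycling cells, had a median of 180 TPM on day 1 (172 to 194), 30.0 TPM on day 10 (25.9 to 34.9), 45.1 TPM on day 21 (33.5 to 53.1) and 6.85 TPM on day 39 (5.34 to 10.7). CCNB1, the main mitotic cyclin, had a median of 209 TPM on day 1 (201 to 226), 42.2 TPM on day 10 (37.8 to 45.4), 54.3 TPM on day 21 (43.3 to 61.5) and 15.7 TPM on day 39 (13.6 to 23.2). PLK1 ran from a median of 159 TPM on day 1 (149 to 169) through 34.2 TPM on day 10 (25.8 to 39.0) and 41.3 TPM on day 21 (31.3 to 52.6) to 6.55 TPM on day 39 (5.20 to 12.8). In these 3 genes, too, the libraries of days 10 and 21 overlapped and those of day 39 lay below both.

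**Figure D1:**
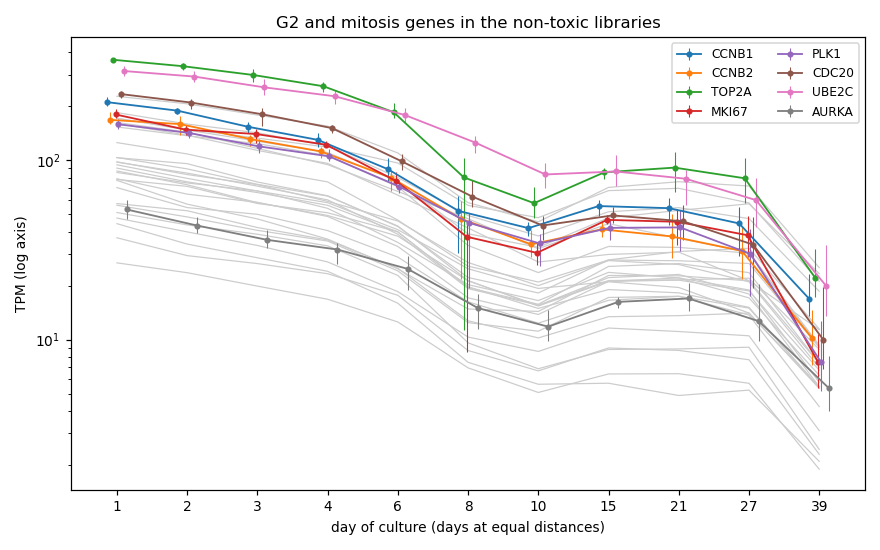
TPM of the members in the non-toxic libraries (log axis) by day after seeding, with days at equal distances. Coloured points are means of 8 named genes with bars from the lowest to the highest library, and grey lines are the means of the other members. The genes fall to day 10, the means of 33 of 35 are higher on day 21 than on day 10, and all are lowest on day 39.

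From day 1 to day 4 all 35 members fell, with a median difference of -0.66 on the log2 scale, where 29.8% of all genes tested fell and the median of all genes was -0.01. MELK, a kinase of proliferating progenitors, fell most (-1.07, SE 0.07) and UBE2C, the ubiquitin-conjugating enzyme of the ligase, least (-0.47). CCNB1 fell by 0.69 (SE 0.05, limma adjusted p = 2.33e-25) and TOP2A by 0.49 (SE 0.10, adjusted p = 4.2e-06). Less transcript here may be fewer dividing cells or less transcript in each: in bulk RNA these cannot be told apart. The S phase list fell with the members, 24 of 24 genes at a median of -0.77, and so did 48 of 49 other G2 and M genes. All 8 neuron markers rose (median 1.15) and all 5 mesenchymal markers, collagens and matrix proteins, fell (median -2.48), and their part in the members' fall was not tested.

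From day 4 to day 10 all 35 members fell again, with a median of -1.70, where 36.1% of all genes fell and the median of all genes was 0.00. TOP2A (-2.15, SE 0.10), the spindle pole protein ASPM (-2.14) and the kinetochore protein CENPF (-2.13) fell most, and MELK and PRC1, a crosslinker of the anaphase midzone, least (both -1.29). On day 10 the members stood at a median of 18.5% of their day 1 mean, from 12.7% to 27.97%. AURKA had a median of 53.1 TPM on day 1 (47.0 to 60.2) and 11.5 TPM on day 10 (9.77 to 14.6).

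Between day 10 and day 21 the order turned. Of the 35 members, 29 rose and none fell, with a median of 0.39, but 49.9% of all genes tested rose and the median of all genes was 0.17, so the count of members is to be read against a broad rise. The kinase PBK (0.73, SE 0.07), the microtubule bundler NUSAP1 and the checkpoint kinase BUB1B (both 0.72) rose most. HMMR (-0.19), UBE2C (-0.08), CDCA8 (0.00), CDC20 (0.07), CCNB2 (0.13) and AURKB (0.17) did not pass the test. CDC20 had a median of 43.0 TPM on day 10 (36.1 to 49.2) and 44.8 TPM on day 21 (36.0 to 56.1). UBE2C had 81.6 TPM (69.9 to 96.0) and 78.8 TPM (56.2 to 88.1), and CCNB2 34.7 TPM (28.8 to 40.8) and 38.5 TPM (28.6 to 50.4). For these 3 genes the ranges of both days overlapped widely. All 6 astrocyte markers and all 5 mesenchymal markers rose in the same interval, the latter by a median of 2.28, and their part was not tested.

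From day 21 to day 39 all 35 members fell, with a median of -1.63, where 42.2% of all genes fell and the median of all genes was -0.08. MKI67 (-2.45), PLK1 (-2.38) and CDC20 (-2.15) fell most, and HMMR (-0.93), MELK (-0.94) and CDK1 (-1.14) least. On day 39 the members stood at a median of 6.85% of day 1, from 4.19% to 14.7%. CDC20 had a median of 234 TPM on day 1 (222 to 242) and 8.32 TPM on day 39 (6.82 to 19.6), UBE2C 314 TPM (296 to 334) and 18.7 TPM (13.5 to 33.5), CCNB2 168 TPM (159 to 187) and 9.72 TPM (7.24 to 14.6), and AURKA 5.05 TPM on day 39 (4.02 to 8.09). Every library of day 39 lay below every library of day 1 for these genes. The S phase list fell less, 21 of 24 genes at a median of -0.49. Among the regulators, the non-toxic mean of FOXM1 was 170 TPM on day 1, 35.5 on day 10, 46.0 on day 21 and 11.8 on day 39, and that of MYBL2 was 153, 35.9, 38.1 and 17.6 TPM. CDKN1A, the cyclin kinase inhibitor p21, went the other way only after day 21. Its mean was 32.1 TPM on day 1, 17.2 on day 10, 64.3 on day 21 and 369 on day 39.

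Compounds differed in size, direction and timing of their difference from the non-toxic libraries of the same day. Over the non-toxic libraries themselves, the median deviation of the 35 genes had an SD of 0.022 on day 1, 0.078 on day 6, 0.069 on day 10 and 0.053 on day 15. The SD was 0.184, 0.258 and 0.223 on days 21, 27 and 39, so single libraries of these days are less precise. It was 0.399 on day 8, where ibuprofen lay apart at -1.12 and the other non-toxic libraries lay from 0.04 to 0.28. The ibuprofen library lowers the non-toxic mean of day 8, so differences from that mean are shifted upward on this day. The median non-toxic library of day 8 was at 0.105.

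**Figure D2:**
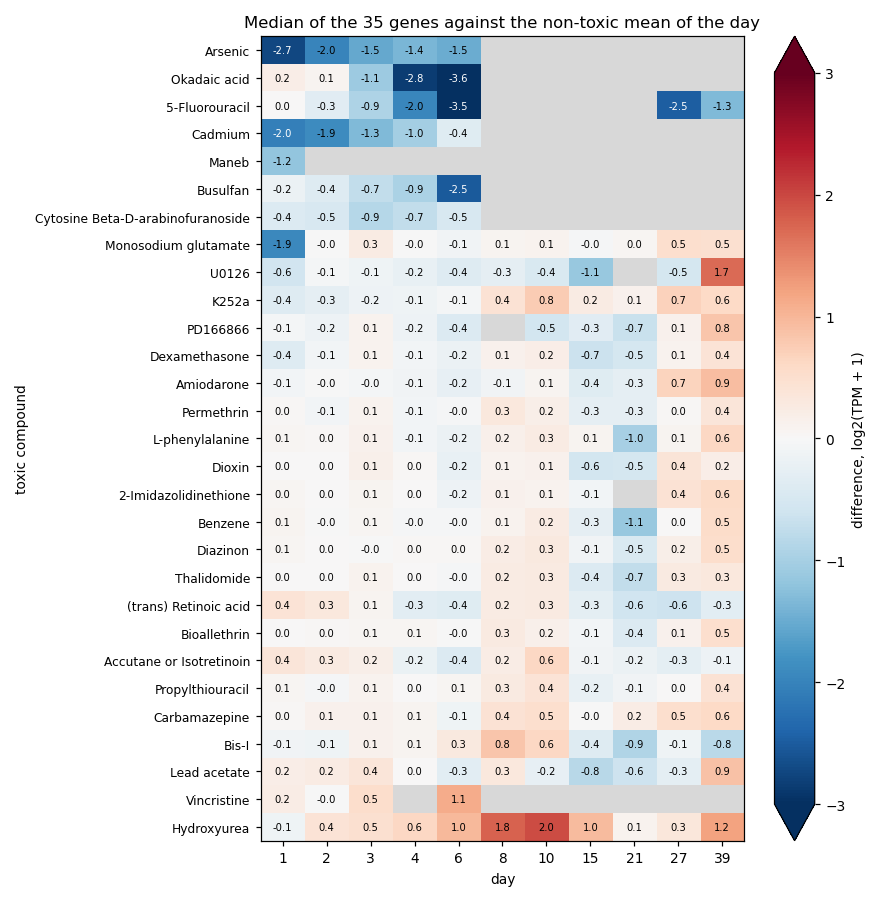
Heat map of the median log2(TPM + 1) difference of the 35 genes from the non-toxic mean of the same day, with the 29 toxic compounds as rows and the 11 days as columns (grey where there is no library). Arsenic and cadmium are low from day 1, 5-fluorouracil, okadaic acid and busulfan sink from day to day to -3.504, -3.60 and -2.51 on day 6, and hydroxyurea stands above 0 on every day after day 1.

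5-Fluorouracil, a pyrimidine analogue that blocks thymidylate synthesis, was followed on days 1 to 6, 27 and 39. TOP2A had 398, 278, 145, 53.5 and 7.70 TPM on days 1, 2, 3, 4 and 6, against 171 to 209 TPM in the non-toxic libraries of day 6. CCNB1 had 208, 131, 81.0, 38.0 and 13.2 TPM on these days, CDC20 had 230, 137, 101, 51.5 and 5.31 TPM, and PLK1 had 143, 111, 73.9, 31.4 and 7.91 TPM. On day 1 CCNB1 and CDC20 lay within the non-toxic libraries, TOP2A above and PLK1 below them, and on day 6 all 4 genes lay far under them. The daily median of the 35 genes went from 0.01 through -0.35, -0.92 and -1.95 to -3.504. Over days 1 to 6 together all 35 members fell (median -1.39), where 16.7% of all genes fell and the median of all genes was 0.07. AURKB, the kinase of the passenger complex, fell most (-1.89, SE 0.20, adjusted p = 8.36e-14) and AURKA least (-1.002), with TOP2A at -1.57 (SE 0.19, adjusted p = 5.51e-11) and CCNB1 at -1.17 (SE 0.11, adjusted p = 4.2e-15). These averages lie between days of no difference and days of a large one.

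In the same 5-fluorouracil libraries, S phase genes fell by a smaller median (23 of 24 genes, median -0.92) and all 49 other G2 and M genes fell (median -1.12). CDKN1A rose by 4.21, from 161 TPM on day 1 to 829 TPM on day 6. The 5 mesenchymal markers summed to 1657 to 2880 TPM against 466 to 2584 TPM in the non-toxic libraries of these days, and all 5 rose. Their part in the members' fall was not tested. On days 27 and 39, 35 of 35 members were lower again (median -1.95), where 22.5% of all genes fell. TOP2A was at 4.36 and 2.08 TPM (-3.38, SE 0.22, adjusted p = 2.58e-13) and CCNB1, the member that fell least, at 20.7 and 15.4 TPM (-0.57, SE 0.20, adjusted p = 0.0179). Tested against the early effect, 11 members fell further in the late days (23.9% of all genes did), TOP2A by 1.81, while CCNB1 alone moved the other way (0.60, adjusted p = 0.0132; 25.5% of all genes rose). The count of 11 rests on single libraries: it was 2 without day 27, 6 without day 1 or without day 2, 17 without day 4, 25 without day 39 and 30 without day 6. On days 27 and 39 the mesenchymal markers summed to 1214 to 1509 TPM against 4125 to 8420 TPM in the non-toxic libraries, the astrocyte markers to 541 to 737 TPM against 2962 to 5428 TPM and the progenitor markers to 2534 to 2633 TPM against 4191 to 6111 TPM. Their part was not tested.

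Busulfan, an alkylating agent that crosslinks DNA, had a downward course as well, from a daily median of -0.19 on day 1 to -2.51 on day 6. TOP2A had 345, 254, 128, 102 and 18.6 TPM on days 1, 2, 3, 4 and 6, and MKI67 had 150, 91.6, 33.2, 46.0 and 7.91 TPM. PLK1, with 90.0, 81.9, 59.6, 46.4 and 8.14 TPM, was under every non-toxic library from day 1 on. UBE2C had 329, 301, 262, 160 and 31.8 TPM and AURKA had 46.7, 46.3, 40.7, 30.5 and 10.95 TPM. UBE2C lay within the controls until day 3 and AURKA on days 2 to 4, and both were below every control on day 6. Of the 35 members 34 fell over days 1 to 6 (median -0.97), where 35.3% of all genes fell and the median of all genes was -0.03. MKI67 fell by 1.496 (SE 0.12, adjusted p = 3.71e-19) and PLK1 by 1.34 (SE 0.10, adjusted p = 6.09e-21). MELK did not pass the test (0.09, adjusted p = 0.288), with 95.8, 67.3, 63.7, 46.6 and 13.02 TPM. It was above every control on days 1 to 4 (at most 81.4, 63.2, 51.5 and 41.2 TPM) and below every control on day 6 (at least 17.3 TPM), so its average joins opposite differences. AURKA passed it (-0.21, adjusted p = 0.0109) only with day 6: without that day its difference was 0.01. CDKN1A rose by 5.34. The library of day 3 had a length slope of -0.21, and without it 34 members fell as well. The mesenchymal markers summed to 3645 to 11833 TPM against 466 to 2584 TPM in the controls. Their part was not tested.

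In AraC, a nucleoside analogue that stops DNA chain growth, some members were far below the controls from day 1 on, while others were near or above them. PLK1 was low at once and stayed low, with 37.8, 37.6, 25.9, 33.0 and 29.01 TPM on days 1, 2, 3, 4 and 6. CDC20 had 74.4, 66.8, 42.9, 46.7 and 44.2 TPM, against at least 222 TPM on day 1 and 88.0 TPM on day 6 in every non-toxic library. TOP2A had 284, 241, 148, 141 and 122 TPM, a smaller distance. MELK, with 103, 75.0, 77.6, 74.4 and 46.5 TPM, was above every non-toxic library on all 5 days, for example on day 1 (72.6 to 81.4 TPM), day 4 (34.1 to 41.2 TPM) and day 6 (17.3 to 31.00 TPM). Over days 1 to 6, 32 members fell and 1 rose (median -0.57), where 27.4% of all genes fell, 41% rose and the median of all genes was 0.07. PLK1 (-1.80, SE 0.05, adjusted p = 6.07e-51), CDC20 (-1.63, SE 0.05, adjusted p = 3.88e-48) and ASPM (-1.26) fell most, and MELK rose (0.69, SE 0.06, adjusted p = 8.45e-18). CDK1 (0.01) and the microtubule depolymerase KIF2C (0.02) did not pass the test.

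By role, the AraC values for CCNB1 (-0.94) and CCNB2 (-0.97) lay apart from those for CCNA2 (-0.28), CDC25C (-0.34) and CDK1. Among the kinases the range ran from PLK1 over TTK (-0.89), BUB1 (-0.86) and BUB1B (-0.62) to AURKB (-0.28) and MELK. Of the motors, KIF20A, which acts in cytokinesis, was at -0.99 and the chromatin motor KIF4A at -0.26. The S phase list divided as well, with 14 genes higher and 10 lower (median 0.33), and of 49 other G2 and M genes 31 fell and 10 rose (median -0.21). Of the activators, MYBL2 rose by 0.70 and FOXM1 was at 0.07 and did not pass the test. CDKN1A rose by 5.73, from 517 TPM on day 1 to 2151 TPM on day 6. The mesenchymal markers summed to 3033 to 8708 TPM and the astrocyte markers to 291 to 958 TPM (non-toxic 466 to 2584 and 200 to 271 TPM), and their part was not tested.

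Hydroxyurea, which blocks the ribonucleotide reductase that supplies DNA precursors, was followed on all 11 days, and most members were high. TOP2A had 372 TPM on day 1 and 510, 448, 441 and 408 TPM on days 2, 3, 4 and 6, against 317 to 346 TPM on day 2 and 171 to 209 TPM on day 6 in the non-toxic libraries. PLK1 had 82.5, 128, 128, 120 and 113 TPM, low on days 1 and 2 and high on day 6 against non-toxic ranges of 149 to 169, 133 to 150 and 66.1 to 77.2 TPM. CDC20 had 118, 185, 181, 177 and 153 TPM and CCNB1 157, 239, 216, 198 and 176 TPM. On day 1, therefore, PLK1, CDC20 and CCNB1 were below every control and TOP2A was not. Over days 1 to 6, 33 of 35 members rose (median 0.44), where 29.9% of all genes rose and the median of all genes was 0.02. MELK (1.10, SE 0.08, adjusted p = 1.12e-22), CDC25C (0.79), the phosphatase that activates CDK1, and AURKB (0.75) rose most, TOP2A rose by 0.63 (SE 0.05, adjusted p = 3.45e-19), and PLK1 (-0.03, adjusted p = 0.753) and CDC20 (-0.06, adjusted p = 0.507) did not pass the test. The S phase list rose more, 23 of 24 genes at a median of 0.70, and 46 of 49 other G2 and M genes rose. FOXM1 rose by 0.83, MYBL2 by 1.18 and CDKN1A by 2.09.

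On days 8 to 39 all 35 members rose with hydroxyurea (median 1.05), where 23.9% of all genes rose. TOP2A had 311, 302, 178, 74.8, 95.5 and 60.1 TPM on days 8, 10, 15, 21, 27 and 39, and PLK1 had 131, 90.4, 71.8, 49.4, 42.5 and 22.8 TPM. The daily median of the 35 genes was largest on day 10 (1.95), lowest on day 21 (0.12) and 1.21 on day 39. The library of day 21 had a length slope of -0.19, and its part in the low value was not tested. AURKB rose most (1.39, SE 0.15, adjusted p = 2.65e-12) and TTK least (0.71), with TOP2A at 1.17 (SE 0.21, adjusted p = 2.72e-06). The late effect was larger than the early one for 30 members (median difference 0.54; 10.6% of all genes), most for CDC20 (1.198, SE 0.14, adjusted p = 4.36e-12) and PLK1 (1.03), while MELK (0.15), BUB1B, CDC25C, KIF23 and NUSAP1 did not pass. That count was 13 without day 1 and 15 without day 10. CDKN1A rose in both windows (2.02 late). Mesenchymal markers rose too, summing to 1581 to 3087 TPM early (non-toxic 466 to 2584) and 2131 to 10115 TPM late (non-toxic 71.0 to 8420), and their part was not tested.

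**Figure D3:**
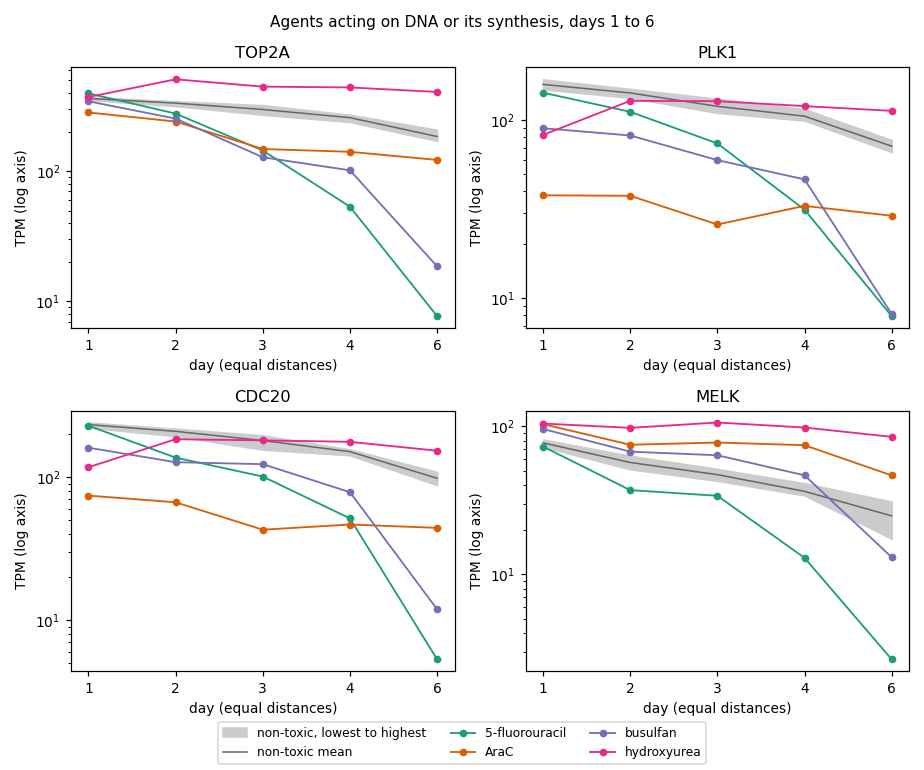
TPM of TOP2A, PLK1, CDC20 and MELK on days 1, 2, 3, 4 and 6 for 5-fluorouracil, AraC, busulfan and hydroxyurea, with the non-toxic mean and a band from the lowest to the highest non-toxic library. PLK1 and CDC20 in AraC are low from day 1 while MELK is above the band, 5-fluorouracil and busulfan sink under it, and hydroxyurea lies above it for TOP2A and MELK from day 2.

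The 4 agents were also compared with each other, day for day, in 6 pairs at the single dose each was given, so a difference between agents is also one between doses. Hydroxyurea exceeded AraC in 34 of 35 members (median 1.10), where 8.44% of all genes were higher. PLK1 differed by 1.77 (95% interval 1.37 to 2.17, adjusted p = 0.00722) and MELK by 0.41 (0.13 to 0.70, adjusted p = 0.052), which did not pass. With 5 days per agent these calls are fragile: none was left without day 2, day 3 or day 4, and 2 without day 6. Hydroxyurea exceeded 5-fluorouracil in 2 members, MELK (2.18, 0.71 to 3.64) and CDC25C (1.96, 0.66 to 3.25), at a median of 1.87 (11.1% of all genes were higher, and 26 members had an unadjusted p under 0.05). That count was 12 without day 1 and 0 when any other day was left out. Against busulfan the count was 0 by limma (28 members unadjusted; 2.8% of all genes higher) at a median of 1.37, and 9 without day 1, with MKI67 at 2.06 (0.67 to 3.45).

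MELK was also called in other pairs. It was lower in 5-fluorouracil than in AraC (-1.76, -2.95 to -0.57), the 1 member called there and none when day 2, 3, 4 or 6 was left out (16.9% of all genes were lower, and 3 members had an unadjusted p under 0.05), whereas PLK1 was at 0.62 (-0.78 to 2.01). Between 5-fluorouracil and busulfan MELK (-1.17, -1.79 to -0.55) and HMMR (-1.15, -1.76 to -0.53), a hyaluronan receptor that works on the spindle, were lower, where 5.29% of all genes were (6 members without day 1, 0 when any other day was left out). AraC and busulfan differed in 0 members by limma (2 unadjusted; 1.23% of all genes higher), with MKI67 at 0.95 (0.01 to 1.89). The counts also depended on the spread used: with the non-toxic libraries added to share it, they were 35 for hydroxyurea against 5-fluorouracil and against busulfan, 28 for 5-fluorouracil against AraC, 10 for 5-fluorouracil against busulfan and 21 for AraC against busulfan. The wide intervals hold differences of more than 1 log2 unit, so the lack of calls does not show that agents acted alike. Adjusted p-values are over all genes within each pair and were not adjusted over the pairs.

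Vincristine, which keeps tubulin from forming microtubules, had its 4 usable early libraries on days 1, 2, 3 and 6. CCNB1 had 263, 193, 318 and 300 TPM, PLK1 had 163, 141, 223 and 223 TPM, and CDC20 had 271, 209, 348 and 290 TPM. On day 6 the highest non-toxic libraries had 103, 77.2 and 109 TPM of these 3 genes. TOP2A, by contrast, had 431, 331, 250 and 151 TPM, above the controls on day 1, within them on day 2 and below them on days 3 and 6 (at least 272 and 171 TPM). Of the 35 members 30 rose (median 0.43), where 15% of all genes rose and the median of all genes was 0.00. CCNB1 (0.78, SE 0.09, adjusted p = 7.09e-10), CDC20 (0.68) and HMMR (0.67) rose most, and TOP2A (-0.08), CDK1 (-0.09), AURKB (0.08), CDC25C (0.06) and UBE2C (0.01) did not pass the test.

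With the day 4 library, the 1 set aside, the count for vincristine was 7 and the median 0.02. CCNB1 was then at 0.32, PLK1 at 0.21 and no longer past the threshold, and MKI67 at -0.05 instead of 0.43. The statement for vincristine thus holds for the 4 other libraries, in which the daily median was 0.22, 0.00, 0.53 and 1.12. The S phase list did not rise with the members in these 4 libraries (3 genes higher and 5 lower of 24, median -0.04), while 38 of 49 other G2 and M genes rose. CDKN1A rose by 2.32. Progenitor markers summed to 5003 to 9066 TPM (non-toxic 3585 to 5894) and neuron markers to 1725 to 3066 TPM (non-toxic 2449 to 6426), and their part was not tested.

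Okadaic acid, an inhibitor of the PP2A and PP1 phosphatases, changed from high to low within the first days. CCNB1 had 300 and 271 TPM on days 1 and 2, then 103, 22.5 and 13 TPM on days 3, 4 and 6. PLK1 had 265 and 241 TPM and then 101, 18.2 and 4.70 TPM, and AURKA had 82.8 and 70.2 TPM and then 33.7, 12.4 and 6.36 TPM. TOP2A was 384 TPM on day 1 and 213, 70.1, 15.4 and 2.78 TPM afterwards, so it was already below the controls on day 2 (317 to 346 TPM). The daily median went from 0.20 and 0.07 to -1.09, -2.84 and -3.60. Over days 1 to 6 all 35 members fell (median -1.47), where 40.1% of all genes fell and the median of all genes was -0.04. TOP2A fell most (-2.45, SE 0.25, adjusted p = 6.09e-15) and AURKA least (-0.37, SE 0.13, adjusted p = 0.00791).

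The libraries of days 4 and 6 had length slopes of -0.14 and -0.19. Without them 22 members fell with okadaic acid, and CCNB1 (0.15), PLK1 (0.42), CDC20 (0.21) and AURKA (0.41) lay above 0. The S phase list fell in 22 of 24 genes (median -1.22). CDKN1A rose by 5.00, all 8 neuron markers fell (median -1.94), summing to 1334 to 2170 TPM against 2449 to 6426 TPM, and the progenitor markers summed to 5009 to 8503 TPM against 3585 to 5894 TPM. The part of these in the result was not tested.

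**Figure D4:**
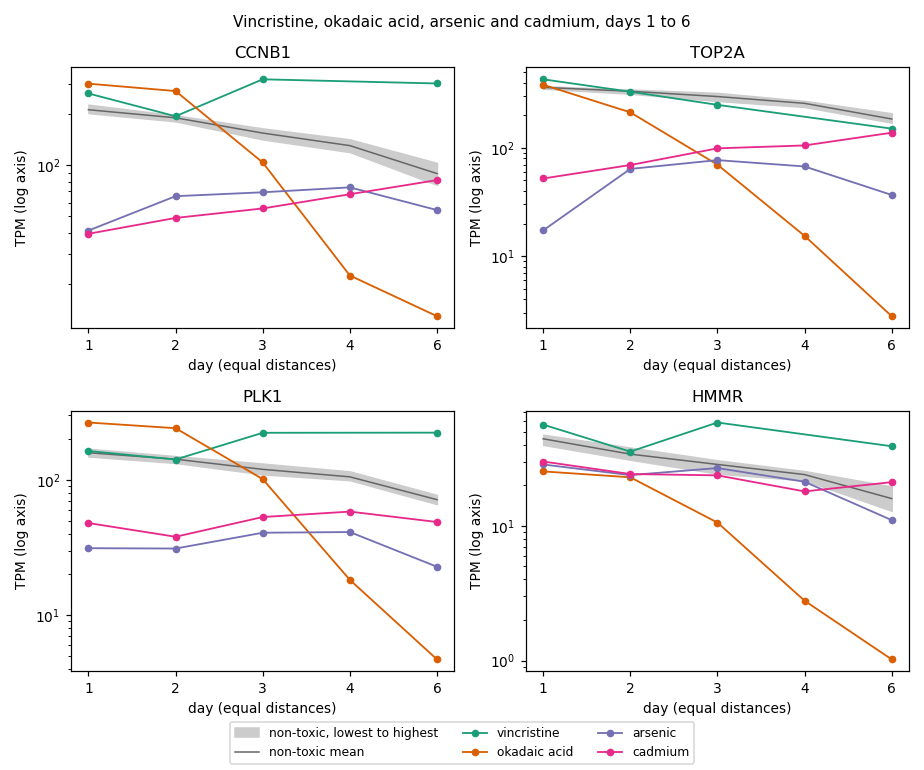
TPM of CCNB1, TOP2A, PLK1 and HMMR on days 1, 2, 3, 4 and 6 for vincristine (no day 4), okadaic acid, arsenic and cadmium, with the non-toxic mean and a band from the lowest to the highest non-toxic library. Vincristine is above the band for CCNB1 and PLK1 on days 3 and 6, okadaic acid crosses it from above, and HMMR in arsenic and cadmium lies closer to it than TOP2A.

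In arsenic and cadmium most members were low from the first day, and the daily median was lowest on day 1. In arsenic, MKI67 had 6.49, 25.9, 32.3, 26.03 and 13.2 TPM on days 1, 2, 3, 4 and 6, against 172 to 194 TPM on day 1 and 70.6 to 85.5 TPM on day 6 in the controls. TOP2A had 17.3, 64.0, 77.2, 67.4 and 36.8 TPM. HMMR had 28.6, 23.8, 26.9, 21.3 and 11.03 TPM, against 39.9 to 47.5, 31.0 to 38.1, 24.4 to 30.7, 21.8 to 25.5 and 12.9 to 19.6 TPM in the controls. It lay within them on day 3 and below them on the other days, on day 4 by less than 1 TPM. All 35 members fell (median -1.82), where 47.1% of all genes fell and the median of all genes was -0.12. MKI67 fell by 2.76 (SE 0.11, adjusted p = 1.13e-38), TOP2A by 2.57 and HMMR, least of all, by 0.37 (SE 0.06, adjusted p = 1.56e-08). Of the regulators FOXM1 fell by 2.23 and CDKN1A rose by 5.18. S phase genes fell (22 of 24, median -1.56). The libraries of days 3, 4 and 6 had length slopes of -0.12, -0.17 and -0.19, and without them 35 members fell as well, MKI67 by 3.53. Those kept, of days 1 and 2, had slopes of -0.081 and -0.047. The mesenchymal markers summed to 2243 to 19437 TPM (non-toxic 466 to 2584), the neuron markers to 877 to 1590 TPM (non-toxic 2449 to 6426), and their part was not tested.

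In cadmium, MKI67 had 17.3, 25.95, 35.5, 48.3 and 47.5 TPM and TOP2A had 52.2, 69.5, 99.1, 105 and 138 TPM on these days. Both genes thus rose from day 1 to day 6 while the controls fell, and the daily median of the 35 genes went from -2.05 to -0.37. All 35 members fell (median -1.27), where 59.9% of all genes fell and the median of all genes was -0.41, so the members' count is to be read against a table in which most genes were low. MKI67 fell most (-1.94, SE 0.11, adjusted p = 1.81e-29), and HMMR (-0.25, SE 0.07, adjusted p = 0.000258) and AURKA (-0.38) least. With each library centred on its median, 30 members fell, and UBE2C (0.04) and AURKA (0.28) lay above 0. S phase genes fell with them (23 of 24, median -1.22), and CDKN1A rose by 2.46. The libraries of days 1, 4 and 6 had length slopes of -0.11, -0.11 and -0.14, and without them 35 members fell as well, MKI67 by 2.21. The libraries kept, of days 2 and 3, had slopes of -0.092 and -0.089, so this count cannot check the length trend. All 5 mesenchymal markers fell (sums of 363 to 1336 TPM), progenitor markers summed to 2313 to 3940 TPM (non-toxic 3585 to 5894), and their part was not tested. Maneb, a dithiocarbamate fungicide given at 60 µM with a library on day 1 only, had a median of -1.19 over the 35 genes where the median of all genes was -1.48. MKI67 was at 7.19 TPM there, while BIRC5, the survivin subunit of the passenger complex, was above the non-toxic mean by 0.38.

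**Figure D5:**
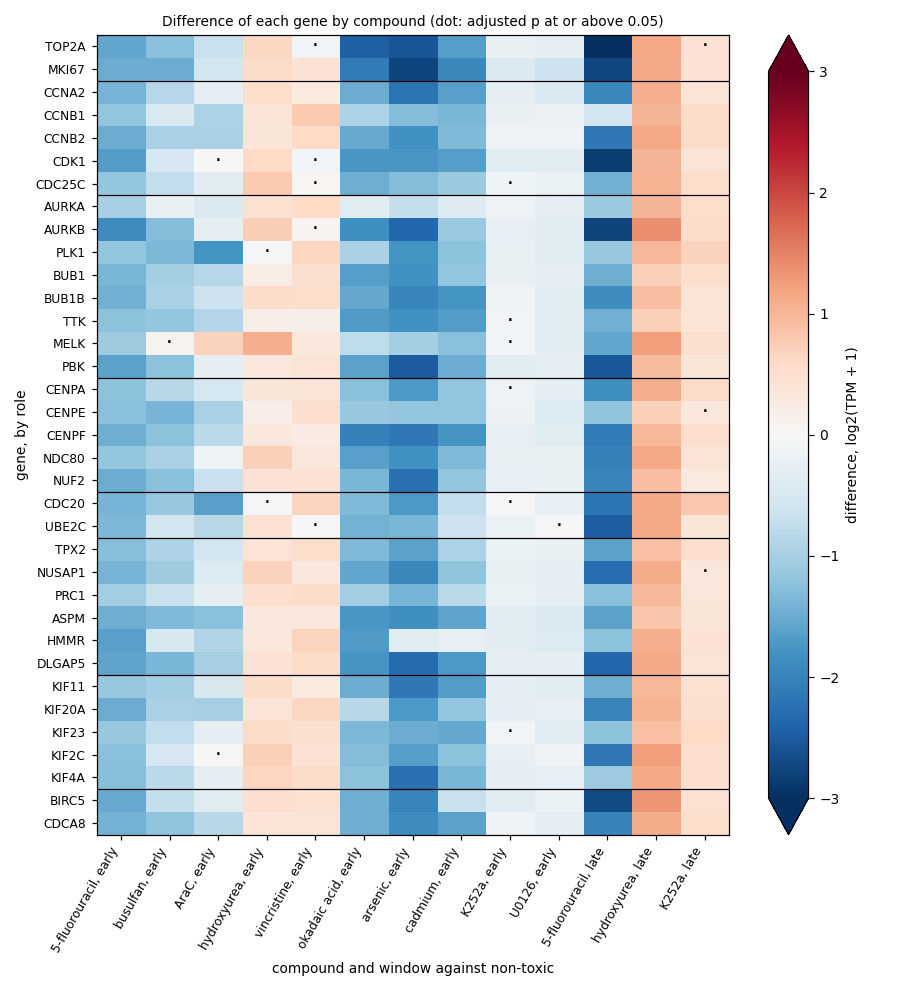
Heat map of the log2(TPM + 1) difference from the non-toxic libraries for the 35 genes, ordered by role (rows), in 13 comparisons of a compound and a window of days (columns). Dots mark an adjusted p of 0.05 or more. Columns of 5-fluorouracil, okadaic acid, arsenic and cadmium are low throughout, hydroxyurea is high, and the MELK row stands out in AraC and busulfan.

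Among the kinase inhibitors the early differences were smaller than with the agents above. In K252a, a broad kinase inhibitor, 29 members fell on days 1 to 6 (median -0.22), where 19.7% of all genes fell and the median of all genes was -0.01. MKI67 fell most (-0.44, SE 0.05, adjusted p = 7.39e-13), and CENPA (-0.15), CDC25C (-0.13), MELK (-0.08), TTK (-0.08), KIF23 (-0.07) and CDC20 (-0.05) did not pass. On days 8, 10, 15, 21, 27 and 39 CCNB1 had 79.9, 71.2, 70.8, 65.3, 74.7 and 24.3 TPM and PLK1 had 68.1, 61.3, 59.7, 53.4, 55.1 and 14.2 TPM in K252a. On all 6 days CCNB1 lay above every non-toxic library, whose highest levels were 62.9, 45.4, 59.9, 61.5, 54.5 and 23.2 TPM. In these late days 32 members rose (median 0.46), where 17.6% of all genes rose, led by CDC20 (0.81, SE 0.12, adjusted p = 7.41e-08). TOP2A (0.44, adjusted p = 0.0507), CENPE (0.33) and NUSAP1 (0.34) did not pass, and the count was 20 without day 10. The late effect exceeded the early one for all 35 members (median 0.69; 12.7% of all genes), from TTK (0.50) to PLK1 (0.90). On days 1 to 6 the astrocyte markers summed to 310 to 425 TPM in K252a (non-toxic 200 to 271) and the mesenchymal markers to 1454 to 3326 TPM (non-toxic 466 to 2584), and their part was not tested.

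U0126 inhibits the kinase MEK and PD166866 the FGF receptor. In U0126 34 members fell on days 1 to 6 (median -0.28), where 26.1% of all genes fell. MKI67 fell most (-0.62, SE 0.06, adjusted p = 5.29e-14) and UBE2C (-0.05) did not pass. MKI67 had 72.1, 139, 111, 57.7 and 61.3 TPM on days 1, 2, 3, 4 and 6, against at least 172, 139, 125, 118 and 70.6 TPM in the controls. The library of day 1 had a length slope of -0.17 and a median of all genes of -0.23, and without it 28 members fell, with MKI67 at -0.45, while CCNB1 and CCNB2 no longer passed. The part of the slope was not tested. On days 8 to 39 none passed by limma (1 unadjusted; 8.36% of all genes fell). The library of day 39 lay far above the others: CCNB1 was at 61.5 TPM, CDC20 at 70.7 TPM and MKI67 at 42.0 TPM there, against at most 23.2, 19.6 and 10.7 TPM in the controls. Without that library 31 members fell. The late effect differed from the early one for 0 members by limma (2 unadjusted; 3.54% of all genes lower), and for 7 without day 39. On days 1 to 6 the astrocyte markers summed to 155 to 173 TPM in U0126 (non-toxic 200 to 271) and the progenitor markers to 3012 to 5523 TPM (non-toxic 3585 to 5894), and their part was not tested.

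In PD166866 22 members fell on days 1 to 6 (median -0.13), where 9.2% of all genes fell. CDK1 (-0.29) and CDC20 (-0.27, SE 0.04, adjusted p = 9.61e-09) fell most, whereas TOP2A (-0.04) and MKI67 (-0.07) did not pass. The count was 13 without day 6. Its late effect was higher than the early one for CDC20 (0.57) and UBE2C (0.38) and lower for CENPE (-0.31), the kinesin of the kinetochore, where 12.5% and 25.4% of all genes were. With single days left out these counts lay between 1 and 6 and between 0 and 14. In Bis-I, a protein kinase C inhibitor, 10 members rose and 2 fell on days 1 to 6 (median 0.05), where 8.9% and 26.1% of all genes did, with AURKA at 0.23 and PBK at -0.19. Without day 6 these counts were 5 and 7, and no member fell without day 2. Later, on days 8 to 39, 2 members fell, PBK (-0.35) and CDK1 (-0.33), where 26.4% of all genes did, and 22 fell without day 8. Daily medians in Bis-I were 0.82, 0.63, -0.39, -0.89, -0.12 and -0.81 on days 8, 10, 15, 21, 27 and 39. The average of this window thus joins opposite differences. Length slopes were -0.14, -0.13 and -0.21 on days 10, 15 and 21, and their part was not tested. The late effect of Bis-I was lower than the early one for 1 member, AURKA (-0.40), where 13.6% of all genes were, and for 22 without day 8. Over their 9 shared days U0126 and PD166866 differed in 0 members by limma (0 unadjusted; 0.933% of all genes lower), with CCNB1 at 0.07 (95% interval -0.24 to 0.38). Bis-I and K252a differed in 0 members over 11 days (2 unadjusted; 20% of all genes lower), with TOP2A at -0.20 (-0.63 to 0.24).

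The retinoids, vitamin A acids that bind nuclear receptors, gave small differences that changed sign over time. TOP2A had 559, 484, 362, 213 and 153 TPM on days 1, 2, 3, 4 and 6 in (trans) retinoic acid, above every control on days 1 to 3 (at most 373, 346 and 323 TPM) and below every control on days 4 and 6 (239 to 272.5 and 171 to 209 TPM). AURKA had 77.2, 69.3, 47.1, 30.4 and 22.3 TPM. The daily median of the 35 genes was 0.41, 0.32, 0.07, -0.32 and -0.36 in this compound and 0.37, 0.28, 0.18, -0.21 and -0.40 in isotretinoin. Over these days together, 5 members rose in (trans) retinoic acid, led by AURKA (0.28, SE 0.06, adjusted p = 0.000203), and HMMR fell (-0.29, SE 0.08, adjusted p = 0.00265), where 19.3% of all genes rose and 21.3% fell. In isotretinoin 8 members rose and 2 fell (15.6% and 21.3% of all genes), with AURKA at 0.25 and HMMR at -0.25. The share of members that rose in isotretinoin lies somewhat above the background, and the other shares lie below it. The counts moved from 1 to 18 and from 1 to 26 higher members when single days were left out, so the window average describes neither the first nor the last of these days. On days 1 to 6 the astrocyte markers summed to 104 to 179 TPM in (trans) retinoic acid and 114 to 189 TPM in isotretinoin (non-toxic 200 to 271), and the progenitor markers to 2267 to 4155 and 2623 to 4554 TPM (non-toxic 3585 to 5894). Their part was not tested.

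On days 8 to 39, 11 members fell in (trans) retinoic acid (median -0.25), where 24.1% of all genes fell, with ASPM at -0.45 and UBE2C at -0.32 (adjusted p = 0.0101). The daily median was 0.24 and 0.26 on days 8 and 10. It was -0.30, -0.59, -0.61 and -0.31 on days 15, 21, 27 and 39, so this average joins opposite differences. The library of day 21 had a length slope of -0.24, and its part was not tested. The count was 2 without day 27, 3 without day 21, 4 without day 15, 5 without day 39 and 24 without day 8, and it was 20 without the ibuprofen libraries. The progenitor markers summed to 2190 to 2512 TPM in these libraries (non-toxic 2423 to 6111), and their part was not tested. The late effect was lower than the early one for 12 members (19% of all genes; 2 to 21 members with single days left out), most for MELK (-0.57), and in isotretinoin for MELK alone (-0.37; 11.3% of all genes). The acids are stereoisomers that differ in the geometry of a double bond. Over 11 shared days they differed in 0 members by limma (10 unadjusted; 0.537% of all genes lower), at a median of -0.13, with TOP2A at -0.20 (95% interval -0.38 to -0.01) and CDC20 at 0.03 (-0.12 to 0.19). Their doses were given in different units, and this pair was added after the values of both had been seen.

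With dexamethasone, a synthetic glucocorticoid, 22 members fell on days 1 to 6 (median -0.13), where 12.9% of all genes fell, with MKI67 at -0.26 (SE 0.04, adjusted p = 3.6e-06) and PBK at -0.26. Without day 1, whose median was -0.40, 6 members fell. In monosodium glutamate 32 members fell and BIRC5 rose (0.13, adjusted p = 0.0035), where 51.7% of all genes fell and 3.56% rose, and without day 1 both counts were 0. TOP2A was at 46.0 TPM on day 1 and at 343 TPM on day 2, inside the controls, and CDC20 at 181 and 202 TPM. With carbamazepine, an anticonvulsant, 13 members rose on days 8 to 39 (median 0.37), where 1.43% of all genes rose and the median of all genes was -0.01. CCNA2, the cyclin of S phase and G2, rose by 0.55 (adjusted p = 0.00101) and CDC20 by 0.53 (adjusted p = 0.00624). The count was 6 without day 10, 8 without day 27 or day 39 and 26 without day 8, and it was 30 without the ibuprofen libraries among the controls. CCNB2 had 68.9, 57.7, 36.5, 40.1, 41.4 and 23.3 TPM on days 8, 10, 15, 21, 27 and 39 in carbamazepine. It was above every control on days 8, 10 and 39, below every control on day 15 (37.5 to 45.7 TPM) and within them on days 21 and 27.

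Amiodarone, an antiarrhythmic drug given at 1 µg/ml, and lead acetate, given at 30 µM, gave small differences on the early days. With amiodarone 16 members fell on days 1 to 6 (median -0.09), where 10.1% of all genes fell, most of all CCNA2 (-0.28, SE 0.03, adjusted p = 8.44e-10). The count was 10 without day 4 or without day 6. On days 8 to 39, 8 members rose (median 0.16), where 6.08% of all genes rose, led by CDC20 (0.56, SE 0.13, adjusted p = 0.00283), and at most 2 without day 15, 21, 27 or 39. The daily median was 0.66 on day 27 and 0.93 on day 39 and below 0 on days 8, 15 and 21. Length slopes were -0.20 and -0.28 on days 15 and 21, and their part was not tested. The signs on days 21 and 39 were shared by the 9 compounds of the next paragraph. With lead acetate 14 members rose on days 1 to 6 (median 0.09), where 17.1% of all genes rose, led by HMMR (0.40, SE 0.06, adjusted p = 8.05e-08) and UBE2C (0.29). The count was 9, 7 and 4 without day 1, 2 and 3 and 30 without day 6, the day with a daily median of -0.31. On days 8 to 39, 1 member fell with lead acetate (median -0.14), where 17.6% of all genes fell. TOP2A had the lowest value (-0.45). Daily medians were 0.32, -0.24, -0.83, -0.62, -0.29 and 0.87 on days 8, 10, 15, 21, 27 and 39, so this average joins opposite differences.

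The 9 other toxic compounds (2-imidazolidinethione, benzene, bioallethrin, diazinon, dioxin, L-phenylalanine, permethrin, propylthiouracil and thalidomide) had daily medians from -0.21 to 0.14 over 45 libraries of days 1 to 6. On later days they reached from -1.13 (benzene, day 21, where the length slope was -0.31) to 0.61 (L-phenylalanine, day 39). On day 39 all 9 lay above the non-toxic mean, from 0.21 (dioxin) upward. On day 21 all of them with a library lay below it, up to -0.10 (propylthiouracil). A value above 0 on day 39 or below 0 on day 21 is thus not particular to a compound described above.

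With 1 value per compound, no difference between the toxic and non-toxic class was called on days 1 to 6: 0 of 35 members passed by limma (10 at an unadjusted p under 0.05), with 28 compounds against 16, where 0.605% of all genes were lower. The median was -0.27, with MKI67 at -0.41 (adjusted p = 0.193) and TOP2A at -0.36 (adjusted p = 0.238). On days 8 to 39, with 21 compounds against 12, 3 members were higher (median 0.09), where 5.16% of all genes were. They were CDC20 (0.34, SE 0.07, adjusted p = 0.0017), PLK1 (0.25, SE 0.07, adjusted p = 0.0183) and CENPA (0.24), the histone variant of centromeres. The late count of 3 is to be read against the share of all genes. With each library centred on its median the late count was 10. On day 21, 14 of 19 toxic and 0 of 11 non-toxic libraries had a length slope under -0.1. On day 15 these were 8 of 21 and 0 of 7. Class and length trend thus go together in the late window, and the part of the trend was not tested.

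The members moved together over the 413 libraries, as deviations from the non-toxic mean of the day. The Pearson correlation of a member with the mean of the other members was highest for DLGAP5 (0.983) and TPX2 (0.981), spindle assembly proteins, and lowest for MELK (0.825) and HMMR (0.828). Of all other genes, by their correlation with the mean of the 35, KIFC1 (0.965), GTSE1 (0.958), NCAPH (0.955), ESPL1 (0.954), KIF15 (0.952), FOXM1 (0.942), FAM64A (0.942), NEK2 (0.933), HJURP (0.931) and KIF18B (0.926) had the most similar pattern. MYBL2 was at 0.774 and CDKN1A at -0.466. These libraries share compounds, days and controls, so the coefficients describe this set of libraries only.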

How the data were processed

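RNA was measured by sequencing in 414 libraries, and 413 were used (vincristine day 4 was left out). The authors deposited 1 table of TPM values for 19084 genes, made with CASAVA 1.8.2, Bowtie 0.12.8 and RSEM 1.2.1 on hg19, per the submitters' processing notes. Each column sums to between 999999.07 and 1000001.05, so depth and counting error are unknown. Whether libraries came from separate cultures is not stated, so p-values measure only the spread between these samples. Values were taken as log2(TPM + 1). The 16192 genes that reached 1 TPM in 5 or more of the libraries used entered limma 3.58.1 (R 4.3.3) with an intensity trend. Day was a factor in all but the class tests. Compound was a random block in the tests against non-toxic and of late against early effects. The block correlation (0.0214) was estimated in the non-toxic libraries only. The time, pair and class tests had no block. P-values were adjusted by Benjamini-Hochberg over all genes tested, with 0.05 as the threshold. Class tests used 1 value per compound, the mean over its days. The scripts were tested on simulated data.

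The members and gene lists were chosen with earlier results of these data known. The named genes were CCNB1, CCNB2, TOP2A, MKI67, PLK1, CDC20, UBE2C and AURKA, up to 3 members with the largest rise or fall per comparison, the 10 other genes most like the members, and CDKN1A, FOXM1 and MYBL2. Further members, those that did not pass and those named by role or beside a daily course, were chosen after their values were seen. Dropping libraries with a length slope below -0.1 on days 1 to 6, adding the retinoid pair and adding back vincristine day 4 were chosen after seeing the data. Length slopes used 9592 of 10309 genes (93.0%) whose mean reached 10 TPM. No libraries were identical.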

Additional observations from a re-analysis of the deposited data

Results flagged for a closer look

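A single library lay far from the others of its group in 2 of 27 groups of 4 to 10 libraries examined, where chance gives about 1 in 20. In monosodium glutamate on days 1 to 6 the day 1 library had a median member deviation of -1.935, where the median of all genes was -1.46. Among the non-toxic libraries of day 8, ibuprofen had -1.124, with TOP2A at 11.3 TPM against a median of 86.5 TPM over the 10 libraries.

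The late effect of a compound differed from its early effect, by limma, for 30 members that were higher with hydroxyurea and 35 that were higher with K252a. With 5-fluorouracil 11 members were lower and 1 was higher. With (trans) retinoic acid 12 were lower. With PD166866 2 were higher and 1 was lower. With Bis-I 1 was lower, and with isotretinoin 1 was lower.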

How the results depend on the processing

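Of 329 other settings of the member counts (pseudocount 0.1, no filter on low values, centring, the block, and the libraries left out or added), 271 gave a count within 1.5 times the reported one, 26 a smaller and 32 a larger one. The cause of these changes was not tested. With compound as a replicate block in the time comparisons, 35, 35, 29 and 35 members were called, as without it. With no replicate block, carbamazepine had 20 members called instead of 13, and no other count moved by more than 1.5 times. Depth cannot be judged from TPM. Values from libraries with a strong length slope, and late single days with their wide non-toxic spread, also limit the results.

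Without the libraries of low length slope, the counts were 22 lower for okadaic acid, 0 lower and 0 higher for monosodium glutamate, 32 for carbamazepine, 0 for Bis-I late, and for late against early effects 6 higher and 0 lower for PD166866 and 0 for Bis-I. In okadaic acid CCNB1 (0.153), PLK1 (0.42), CDC20 (0.206) and AURKA (0.411) then changed sign, as did CCNB1 (0.068), TOP2A (0.043), MKI67 (0.076) and UBE2C (0.044) in monosodium glutamate, with the same values without its day 1. AURKA in busulfan was 0.01 without day 6. With the day 4 library, vincristine had 7 members higher and MKI67 at -0.048. With each library centred on its median, the counts were 14 lower and 6 higher for monosodium glutamate, 30 for carbamazepine, 1 for U0126 late, 18 higher and 1 lower for Bis-I early, 0 for Bis-I late, 9 for amiodarone early, 17 for amiodarone late, 10 for the late class, 7 for hydroxyurea against 5-fluorouracil, 10 for hydroxyurea against busulfan, 8 for 5-fluorouracil against busulfan, and for late against early effects 6 higher and 0 lower for PD166866, 2 for Bis-I and 2 for isotretinoin. Centring turned UBE2C (0.037) and AURKA (0.283) in cadmium, and CCNB1 (0.173), CCNB2 (0.157), CDC20 (0.192), UBE2C (0.099) and AURKA (0.023) in monosodium glutamate. Without ibuprofen the counts were 30 for carbamazepine, 20 for (trans) retinoic acid late, 1 for U0126 late, 4 for Bis-I late, and for late against early effects 19 for (trans) retinoic acid, 8 for Bis-I and 3 for isotretinoin. Without days 15 and 21 they were 0 for (trans) retinoic acid late, 0 for Bis-I late, 1 for amiodarone late and 5 for the late class, and for late against early effects 2 for (trans) retinoic acid, 13 higher and 0 lower for PD166866, 0 for Bis-I and 0 for isotretinoin. With pseudocount 0.1 the late against early counts were 20 lower for 5-fluorouracil and 0 lower for PD166866, and the pair counts were 0 for hydroxyurea against 5-fluorouracil and 0 for 5-fluorouracil against AraC and against busulfan. Without a filter these 3 pair counts were 0 as well. With the non-toxic libraries added to share the spread, the pairs gave 35 for hydroxyurea against 5-fluorouracil and against busulfan, 28 for 5-fluorouracil against AraC, 10 for 5-fluorouracil against busulfan, 21 for AraC against busulfan, 1 for U0126 against PD166866 and 9 for Bis-I against K252a.

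Leaving out 1 library or day at a time kept a count within 1.5 times the reported one in 194 of 317 cases, gave a smaller one in 86 and a larger one in 37. On days 1 to 6 the ranges were 13 to 28 lower for PD166866, 6 to 25 for dexamethasone, 0 to 33 lower and 0 to 1 higher for monosodium glutamate, 1 to 18 higher and 0 to 9 lower for (trans) retinoic acid, and 1 to 26 higher and 0 to 4 lower for isotretinoin, 5 to 15 higher and 0 to 7 lower for Bis-I, 10 to 17 for amiodarone and 4 to 30 for lead acetate (9 and 7 without days 1 and 2). On days 8 to 39 they were 20 to 35 for K252a, 6 to 26 for carbamazepine, 2 to 24 for (trans) retinoic acid, 0 to 31 for U0126, 0 to 22 for Bis-I and 1 to 10 for amiodarone. For late against early effects they were 13 to 34 for hydroxyurea, 2 to 30 lower (17 without day 4) and 0 to 2 higher for 5-fluorouracil, 2 to 21 for (trans) retinoic acid, 0 to 7 for U0126, 1 to 6 higher and 0 to 14 lower for PD166866, 0 to 22 for Bis-I and 0 to 6 for isotretinoin. For the pairs they were 0 to 12 for hydroxyurea against 5-fluorouracil, 0 to 35 against AraC, 0 to 9 against busulfan, 0 to 1 for 5-fluorouracil against AraC and 0 to 6 against busulfan. The counts for 5-fluorouracil, arsenic, cadmium, okadaic acid (32 to 35), busulfan (30 to 34) and AraC on days 1 to 6, for hydroxyurea in both windows and for 5-fluorouracil late (32 to 35) stayed within 1.5 times the reported count in every such case.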
